A study of Mus musculus with 8 samples.

Results

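Cholangiocytes, the epithelial cells that line the bile ducts, carry a primary cilium and secrete fluid and bicarbonate into bile, and 10 genes of these functions were examined here for open chromatin in mouse liver. The set was chosen by function, but with earlier results of these data known. Its members are Pkhd1, Bicc1, Pkd1, Pkd2, Sctr, Cftr, Slc4a2, Aqp1, Slc10a2 and Tspan8, 10 of 21887 protein-coding genes annotated. For each gene, every deposited peak that overlapped the gene body, or the 10 kb before or after it (together its locus), was taken from each of 5 peak lists, and the lists were compared by where peaks lay and which lists held them. A peak is an interval in which the authors' peak caller found more transposase cuts than in its surroundings. It is a measure of accessible DNA, not of transcription.

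The series is an ATAC-seq study of Mus musculus primary liver cells of an Rb family triple knockout model, taken at early and at macroscopic lesions. In this model Cre removes floxed alleles, and YFP marks the recombined cells. YFP+ cells were sorted by Thy1 and EpCAM, the labels list no treatment, and 8 samples fall into 5 groups: EpCAM-high CK19 (2 samples), EpCAM-high Sox9 (1), Thy1+ CK19 (2), Thy1+ Sox9 (1) and EpCAM- (2). The labels do not say what CK19 and Sox9 stand for, which promoter drives Cre, which exons are floxed, or how old the mice were. Of the 5 peak lists, 2 are named EpCAM-high and 2 Prog-like, each with a CK19 and a Sox9 version, and 1 is named Tumor Sox9.

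The names of the EpCAM-high lists match 2 labelled groups. Those of the Prog-like and Tumor lists match none, and they are used here as names only. All lists come from the knockout model, so none is an intact control. There is 1 list per condition and no list served as a replicate of another, so no difference below was tested, and each count describes these lists alone. Read depth is unknown. The EpCAM-high lists held 56932 (CK19) and 59454 (Sox9) peaks, the Prog-like lists 71375 and 67855, and the Tumor list 39644. Because the lists differ in length, each count was repeated after all lists were cut to the 39644 peaks with the highest −log10 p, called equal length below. The lowest −log10 p kept was then 9.02 and 10.3 in the EpCAM-high lists (CK19, then Sox9), 27.9 and 21.9 in the Prog-like lists and 3.33 in the Tumor list. A Prog-like peak lost at equal length can therefore be more significant than an EpCAM-high or Tumor peak that is kept. In bulk sorted cells, fewer cells of a type and less open chromatin per cell cannot be told apart.

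The biology of the set is well known. Secretin binds its receptor SCTR on cholangiocytes and raises cyclic AMP, which activates the chloride channel CFTR through protein kinase A. Chloride that leaves through CFTR is exchanged for bicarbonate by the anion exchanger SLC4A2 (AE2), and water follows through aquaporin 1. Fibrocystin (Pkhd1) and the polycystins (Pkd1, Pkd2) are proteins of the primary cilium, BICC1 is an RNA-binding protein, and loss of any of these 4 genes gives cysts in ducts or tubules of mice. SLC10A2 takes bile acids back from duct bile, and TSPAN8 is a tetraspanin of epithelial membranes.

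The letters just before the start of transcription are shown for 5 members that represent the patterns described below. Pkhd1 and Slc10a2 are shown for a stretch of letters that they share, Tspan8 for a start at which peak summits lay in different places in different lists, Cftr for a start that only the EpCAM-high lists held, and Pkd1 for a start that every list held. Each is the 250 bases that end at the base before the listed start, 5′ to 3′ on the gene's own strand, from RefSeq's annotation of GRCm38.p6, the build also called mm10. Capitals mark GTTAATNATTAA (N is any base) in Pkhd1 and, on the opposite strand, in Slc10a2, and TGTTTAC in Tspan8. Nothing is marked in Cftr and Pkd1.
Pkhd1 (chr1:20618058-20618307, minus strand): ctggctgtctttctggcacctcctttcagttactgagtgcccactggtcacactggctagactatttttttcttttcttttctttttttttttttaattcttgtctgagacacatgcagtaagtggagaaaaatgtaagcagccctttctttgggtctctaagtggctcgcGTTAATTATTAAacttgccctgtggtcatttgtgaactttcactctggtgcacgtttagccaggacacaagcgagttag
Slc10a2 (chr8:5105288-5105537, minus strand): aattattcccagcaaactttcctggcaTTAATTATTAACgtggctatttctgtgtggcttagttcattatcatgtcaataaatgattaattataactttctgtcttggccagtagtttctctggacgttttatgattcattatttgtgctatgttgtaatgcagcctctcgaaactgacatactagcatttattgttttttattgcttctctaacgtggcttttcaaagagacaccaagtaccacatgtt
Tspan8 (chr10:115817034-115817283, plus strand): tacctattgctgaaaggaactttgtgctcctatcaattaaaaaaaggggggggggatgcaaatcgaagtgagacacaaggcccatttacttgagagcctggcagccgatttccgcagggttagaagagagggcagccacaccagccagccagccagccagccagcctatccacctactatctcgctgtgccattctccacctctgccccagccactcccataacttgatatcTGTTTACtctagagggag
Cftr (chr6:18170437-18170686, plus strand): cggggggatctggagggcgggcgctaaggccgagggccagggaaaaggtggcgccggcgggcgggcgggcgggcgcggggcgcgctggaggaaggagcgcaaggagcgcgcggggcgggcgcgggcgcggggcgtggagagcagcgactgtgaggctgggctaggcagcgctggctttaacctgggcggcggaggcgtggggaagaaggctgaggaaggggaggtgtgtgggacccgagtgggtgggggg
Pkd1 (chr17:24549700-24549949, plus strand): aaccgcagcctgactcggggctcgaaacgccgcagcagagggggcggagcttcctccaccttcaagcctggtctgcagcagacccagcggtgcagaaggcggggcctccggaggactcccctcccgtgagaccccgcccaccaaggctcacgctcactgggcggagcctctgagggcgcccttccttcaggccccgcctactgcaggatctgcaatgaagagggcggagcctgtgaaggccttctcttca

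Letters known as cores of transcription factor sites were searched on both strands of these windows for the 8 members with a listed start (9 windows, since Slc4a2 has 2 starts) and in 21263 windows of protein-coding genes. There were 10 patterns, all named in the rest of this paragraph and in the next. TTCCTC (22.2% of all windows) was in those of 4 members, Pkd1, Cftr, Aqp1 and Slc4a2, the most of any pattern. ACAAAG or ACAATG (22.8%) was in those of Slc4a2 and Tspan8, ATTGAT or ATCGAT (6.61%) in that of Tspan8 and ACATTCC (2.84%) in that of Pkd2. CCAAT (35.4%) and TGACTCA or TGAGTCA (4.06%) were in none of the 9. GTTAAT was in the Pkhd1 and Slc10a2 windows and in 5.86% of all windows. The longer GTTAATNATTAA holds GTTAAT within it and was searched after the letters of the members had been seen, so its share is a description only. It was in 13 of the 21263 windows (0.0611%), and these 13 include Pkhd1, at −79 to −68 bp from the start, and Slc10a2, at −223 to −212 bp. Both stretches lay under a peak in both EpCAM-high lists and in the Tumor list, and under no peak of a Prog-like list.

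TGTTTAC, a core of sites for FOX factors, was in the Tspan8 window at −18 to −12 bp and in 2.62% of all windows. Its centre was 5 bp from the peak summit in the EpCAM-high CK19 list and 3 bp in the EpCAM-high Sox9 list, and 535 bp from that in the Prog-like CK19 list. GTTGCC, a core of sites for RFX factors, which control cilium genes, was in 10.5% of all windows and, among the members, in those of Aqp1 and Slc4a2. A match of letters is not evidence that a factor was bound.

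The loci of the set held more peaks in the EpCAM-high lists than in the Prog-like lists. Summed over the 10 loci there were 60 and 74 peaks in the EpCAM-high lists (CK19, then Sox9, an order kept below), 36 and 26 in the Prog-like lists and 43 in the Tumor list. Per 100 kb of locus, the set held 4.32 and 5.32 peaks in the EpCAM-high lists, 2.59 and 1.87 in the Prog-like lists and 3.09 in the Tumor list. Over all protein-coding loci there were 3.17 and 3.52 in the EpCAM-high lists, 4.45 and 4.18 in the Prog-like lists and 2.46 in the Tumor list. The EpCAM-high and Tumor values were thus above the Prog-like values at the 10 loci and below them over all loci.

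At equal length the totals were 51 and 49 in the EpCAM-high lists, 20 and 16 in the Prog-like lists and 43 in the Tumor list. The gap between the EpCAM-high and Tumor totals was thus small at equal length, while both stayed above the Prog-like totals. That cut kept Tumor peaks to a −log10 p of 3.33, but EpCAM-high peaks only to 9.02 and 10.3. With a −log10 q of 5 or more in every list, the EpCAM-high totals were 52 and 66. The Prog-like totals were then 35 and 25 and the Tumor total 37, so the gap stayed. Cftr alone gave 16 and 15 of the EpCAM-high peaks. Without Cftr the totals were 44 and 59 in the EpCAM-high lists, 36 and 26 in the Prog-like lists and 42 in the Tumor list.

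**Figure D1:**
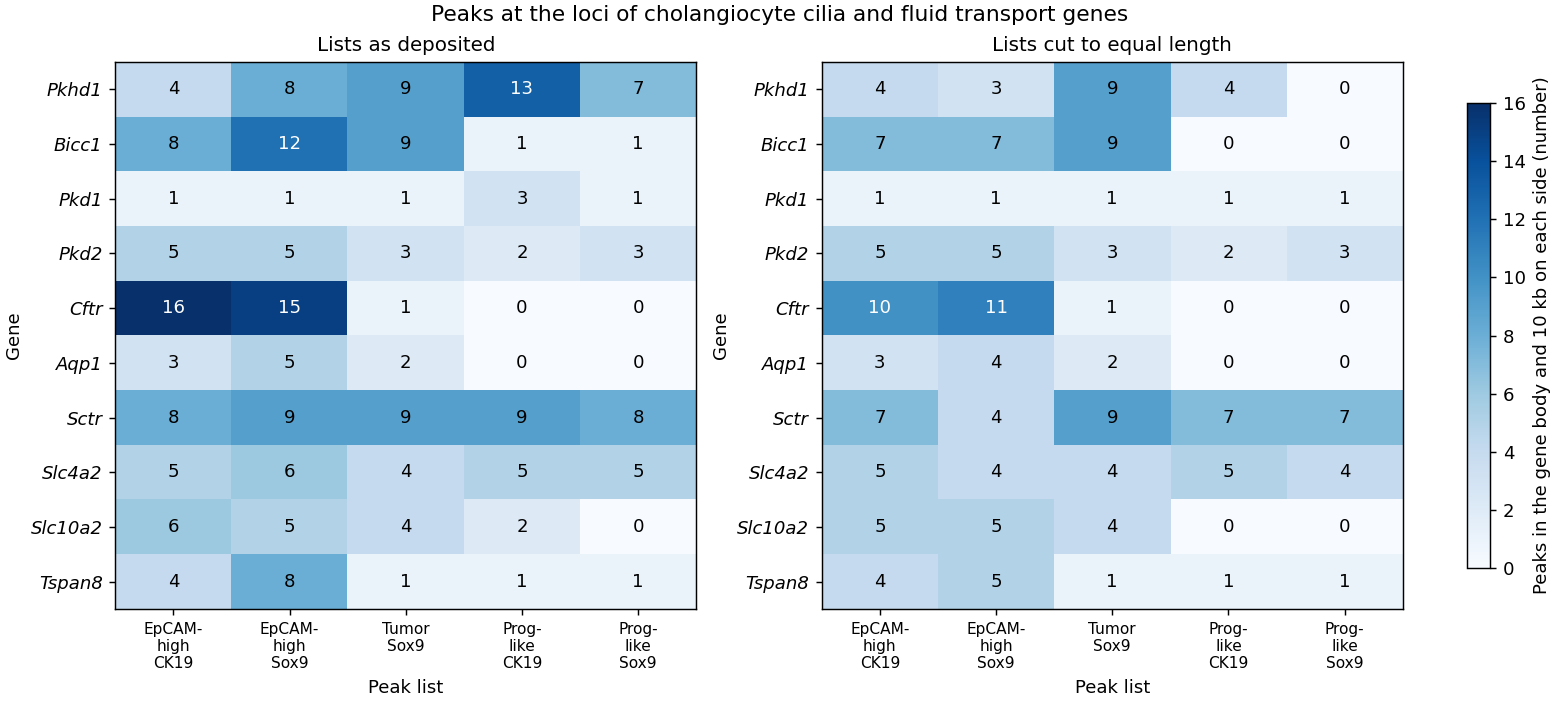
Number of peaks in the gene body and 10 kb on each side (colour and printed number) for each gene (rows) in each of the 5 peak lists (columns), as deposited (left) and with every list cut to 39644 peaks (right). Cftr holds 16 and 15 peaks in the EpCAM-high lists, 1 in the Tumor list and none in the Prog-like lists, and Sctr holds 8 or 9 in every list as deposited.

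Presence of a peak was counted next. All 10 members had at least 1 locus peak in both EpCAM-high lists (75.8% and 74.6% of all genes) and in the Tumor list (68.8%). The Prog-like CK19 list had one at 8 members (74.5% of all genes), lacking Cftr and Aqp1, and the Prog-like Sox9 list at 7 (72.4%), lacking Slc10a2 as well.

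A gene-start peak is a peak within 1000 bp of a listed start. Bicc1 and Sctr have no start or strand in the table used, so for them, and for other such genes, a peak within 1000 bp of either gene end was counted. By this rule 9 and 10 members had a gene-start peak in the EpCAM-high lists (59.0% of all genes in each), 5 and 4 in the Prog-like lists (57.6%, then 54.6%), with 7 in the Tumor list (52.0%). The Prog-like counts were thus close to the share of all genes, and the EpCAM-high counts above it. The Tumor count includes Sctr, by a peak near its other end, and Slc4a2, by a peak whose edge lay at −985 bp and so just inside the window. With lists of equal length, 9 and 8 members had one in the EpCAM-high lists (54.4% and 52.4% of all genes), 4 in each Prog-like list (48.3% and 46.3%) and 7 in the Tumor list (52.0%).

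**Figure D2:**
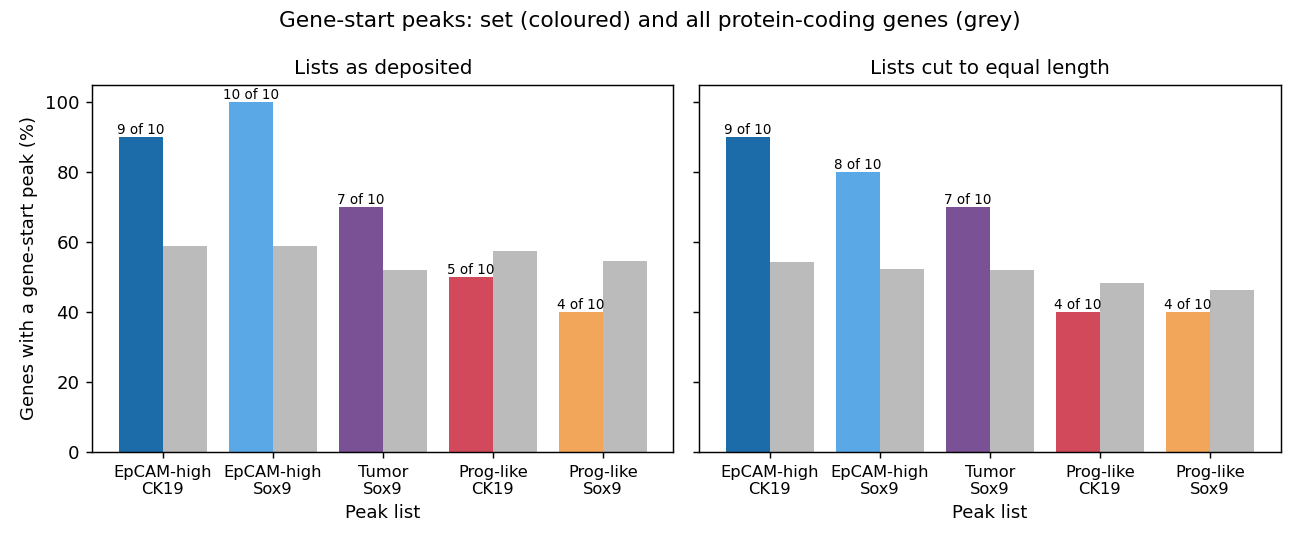
Share of genes with a peak within 1000 bp of the gene start (y axis, %) in each of the 5 lists, for the 10 members (coloured bars, with the number of members above) and all 21887 protein-coding genes (grey bars), as deposited (left) and at equal length (right). The members' bar is above the grey bar in both EpCAM-high lists and the Tumor list, and below it in both Prog-like lists.

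Only Pkd1 and Pkd2 had a gene-start peak in all 5 lists, which 45.5% of all genes had. Pkhd1, Bicc1, Cftr, Aqp1 and Sctr, 5 members, had one in both EpCAM-high lists and in neither Prog-like list, as did 5.17% of all genes. Of these 5, Pkhd1, Bicc1 and Sctr also had one in the Tumor list (2.07% of all genes showed this pattern), but the Tumor peak of Sctr was near the other end of the gene, 57367 bp from the end at which the EpCAM-high peaks lay. At the same start, the pattern was therefore that of Pkhd1 and Bicc1.

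**Figure D3:**
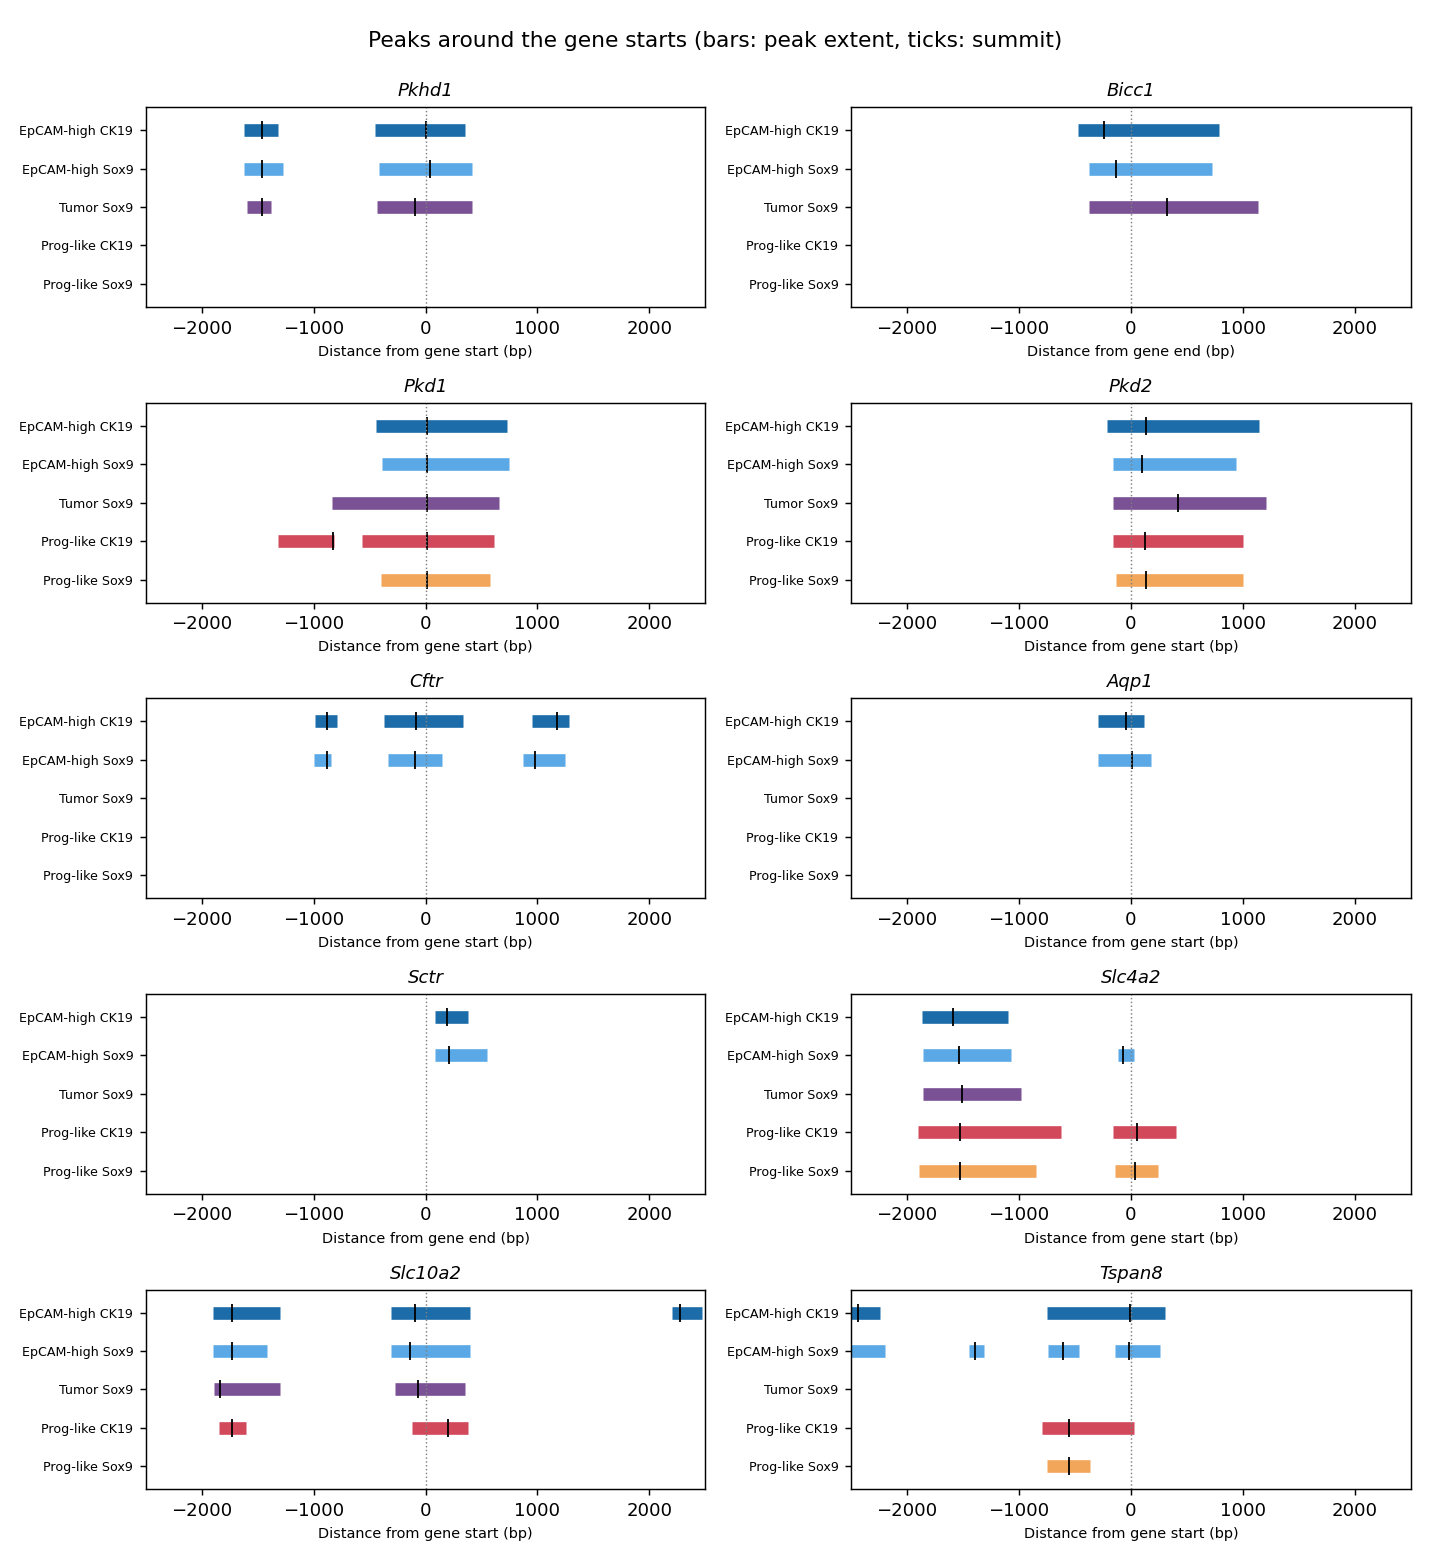
Peaks (bars from first to last base, black tick at the summit) within 2500 bp of the gene start of each member, by list, with upstream to the left; for Bicc1 and Sctr the zero is the gene end that holds the EpCAM-high peak, and for Slc4a2 the first of its listed starts. Pkd1 and Pkd2 have a peak in every list, Cftr and Aqp1 in the EpCAM-high lists alone, and the Prog-like summits at Tspan8 lie at −550 and −554 bp.

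Markers of other cell types differed between the lists too. Of 8 biliary markers, 8 and 8 had a gene-start peak in the EpCAM-high lists, 4 and 1 in the Prog-like lists and 4 in the Tumor list, with summed locus peaks of 37, 48, 9, 6 and 21. Of 6 macrophage markers, 1 and 2 had one in the EpCAM-high lists, all 6 in each Prog-like list and 1 in the Tumor list, with summed locus peaks of 4, 7, 40, 36 and 6. Of 6 hepatocyte markers, 3 and 3 had one in the EpCAM-high lists, none in either Prog-like list and 5 in the Tumor list, with summed locus peaks of 16, 17, 9, 7 and 20. Over all genes, 59.0% and 59.0% had a gene-start peak in the EpCAM-high lists, 57.6% and 54.6% in the Prog-like lists and 52.0% in the Tumor list. Counts of 3 of 6 and 4 of 8 were thus near these shares. At equal length the biliary counts were 7 and 8, 0 and 0, and 4, and the macrophage counts 1 and 2, 6 and 5, and 1. The hepatocyte counts did not change. Over all genes the shares were then 54.4% and 52.4%, 48.3% and 46.3%, and 52.0%.

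Krt19, the keratin of cholangiocytes, had 4 and 6 locus peaks in the EpCAM-high lists and none in the Prog-like or Tumor lists. Adgre1, which encodes the macrophage protein F4/80, had 8 and 5 in the Prog-like lists and none elsewhere. Epcam had 2 and 2 in the EpCAM-high lists, 3 and 3 in the Prog-like lists and 1 in the Tumor list. Alb had 1 and 3 in the EpCAM-high lists, none in the Prog-like lists and 4 in the Tumor list. The part of other cell types in the counts of the set was not tested.

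Among the cilium and cyst genes, Pkhd1 had its peaks in different parts of the gene in different lists. It encodes fibrocystin, and its locus, 580.0 kb, is the longest of the set. There were 4 and 8 locus peaks in the EpCAM-high lists, 13 and 7 in the Prog-like lists and 9 in the Tumor list, so the Prog-like CK19 list held the most. With lists of equal length they were 4 and 3, 4 and 0, and 9, so that most Prog-like peaks at Pkhd1 were among the weaker of their lists.

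At the Pkhd1 start, peaks of the EpCAM-high lists had summits at 0 and 36 bp, and that of the Tumor list at −96 bp, among the top 9.82% of that list by significance. An upstream peak had its summit at −1465 bp, the same base, in both EpCAM-high lists and the Tumor list. No Prog-like peak lay at either place: the nearest was 5138 bp into the gene. The Prog-like peaks lay between 5138 and 165459 bp into the gene and, near its far end, between 548159 and 553694 bp. The Tumor list shared the region at 548167 bp, where its peak was in its top 2.3%, with the EpCAM-high Sox9 list and both Prog-like lists, whose peaks there ranked at 49.0%, 76.5% and 78.7%.

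Bicc1, which encodes an RNA-binding protein of the cyst pathway, was open in the EpCAM-high and Tumor lists. It had 8 and 12 locus peaks in the EpCAM-high lists, 9 in the Tumor list and 1 in each Prog-like list. The single Prog-like peak was at the same place in both lists, 195935 and 195936 bp from the higher-coordinate gene end, and was lost from both at equal length. At that gene end (chromosome 10, position 71159690) both EpCAM-high lists and the Tumor list had a peak, with summits at −237, −133 and 319 bp. Of 16 merged regions at Bicc1, 15 were held by EpCAM-high or Tumor lists and by no Prog-like list. They included regions about 12.4, 27.0 and 101.0 kb into the gene that both EpCAM-high lists and the Tumor list held.

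The polycystin genes had a peak over the start in every list. Pkd1, which encodes the large receptor-like polycystin 1, had 1 locus peak in each list except Prog-like CK19, which had 3, and 1 in every list at equal length. Its start peak had a summit between 11 and 14 bp in all 5 lists. Pkd2, which encodes the channel subunit polycystin 2, had 5 and 5 locus peaks in the EpCAM-high lists, 2 and 3 in the Prog-like lists and 3 in the Tumor list. These numbers did not change at equal length.

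The Pkd2 start peak had its summit at 135, 97, 129 and 134 bp in the EpCAM-high and Prog-like lists and at 424 bp in the Tumor list. Regions around −5.77 and 11.7 kb of the Pkd2 start were held by both EpCAM-high lists alone. The region at −13.1 kb was held by both EpCAM-high lists and the Tumor list. It also lies within 10 kb of Spp1, 1 of the biliary markers, so its peaks are in the biliary marker sums above too. A region at 49.6 kb, held by all 5 lists, overlaps the neighbouring gene Thoc2l.

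The secretin receptor gene Sctr had about the same number of peaks in each list as deposited, but at different places. There were 8 and 9 in the EpCAM-high lists, 9 and 8 in the Prog-like lists and 9 in the Tumor list. At equal length they were 7 and 4, 7 and 7, and 9. Of 19 merged regions, 10 were held by EpCAM-high or Tumor lists alone, 6 by Prog-like lists alone and 3 by both kinds. The region 26.4 kb from the lower-coordinate gene end was held by all 5 lists, with summits between 26346 and 26441 bp. The peaks there were in the top 5.39% and 4.9% of the Prog-like lists and at 25.8%, 17.2% and 30.0% of the EpCAM-high and Tumor lists.

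Near the lower-coordinate end of Sctr (position 120006879) the EpCAM-high lists had a weak peak, at 69.2% and 79.4% of their lists, and no other list had one within 1000 bp. The Prog-like lists alone held 5 regions together in the gene body, of which the one at 50.4 kb was in the top 7.52% and 8.32% of its lists. The regions at −9.55 and 67.8 kb lie at the starts of the neighbours Cfap221 and Tmem37.

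Cftr, the chloride channel that cyclic AMP activates through protein kinase A, showed the widest gap between lists in the set. It had 16 and 15 locus peaks in the EpCAM-high lists, none in either Prog-like list and 1 in the Tumor list. At equal length the EpCAM-high lists kept 10 and 11. All 18 merged regions were thus held without a Prog-like list, and 11 of them by both EpCAM-high lists alone. The peak over the Cftr start had its summit at −90 and −93 bp in the EpCAM-high lists.

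The strongest Cftr region lay inside the gene, at chr6:18270935-18271507, with summits at 100480 and 100478 bp from the start. It was in the top 0.75% and 0.671% of the EpCAM-high lists, with deposited −log10 q of 213.0 and 162.0. The only Cftr peak of the Tumor list lay in this region, with its summit at 100465 bp, and ranked at 60.2% of that list. The start of Cftr itself was not among the Tumor peaks. The files used here give genes no exons, so exons and introns of the loci were not separated.

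Slc4a2, the chloride-bicarbonate exchanger AE2, had peaks in every list. There were 5 and 6 in the EpCAM-high lists, 5 and 5 in the Prog-like lists and 4 in the Tumor list. The strongest, chr5:24423326-24424605, was held by all 5 lists, with summits between −1591 and −1511 bp from the first listed start, and was in the top 2.89% and 2.88% of the Prog-like lists. It also lies within 1 kb of the start of Cdk5, so it cannot be given to Slc4a2 alone. The same holds for most other peaks of the locus. The regions at 19.9 and 22.6 kb, held by all 5 lists, lie at the starts of Fastk and Tmub1. That at −8.78 kb, held by every list but Tumor, overlaps Asic3 and Cdk5. A peak over the first listed start was in the EpCAM-high Sox9 and both Prog-like lists. The region around 2.99 kb into the gene was held by both EpCAM-high lists and the Tumor list alone, with summits at 2930, 2930 and 2928 bp.

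Aqp1, the water channel of cholangiocytes and red cells, had 3 and 5 locus peaks in the EpCAM-high lists, none in the Prog-like lists and 2 in the Tumor list. Its start peak was in the EpCAM-high lists alone, with summits at −45 and 9 bp. The Tumor peaks lay at 5532 and 21532 bp, in regions that both EpCAM-high lists held too, and were weak, at 86.6% and 79.7% of the list. Both had a −log10 q under 5.

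Slc10a2, the sodium-dependent bile acid transporter of ileum, kidney and bile ducts, had 6 and 5 locus peaks in the EpCAM-high lists, 2 and 0 in the Prog-like lists and 4 in the Tumor list. At equal length neither Prog-like list had one, while the EpCAM-high lists had 5 and 5 and the Tumor list 4. Its strongest region lay upstream, at chr8:5106585-5107191, in the top 0.532% and 0.676% of the EpCAM-high lists, with −log10 q of 234.0 and 161.0. The summit was at −1728 bp, the same base, in both EpCAM-high lists and in the Prog-like CK19 list, where the peak ranked at 78.2%. The Tumor summit was at −1835 bp, at 12.1% of its list.

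The peak over the Slc10a2 start had summits at −97 and −137 bp in the EpCAM-high lists and at −69 bp in the Tumor list. In the Prog-like CK19 list a weaker peak, at 86.3% of the list, ran from −124 to 382 bp with its summit at 202 bp. It did not cover the GTTAATNATTAA stretch printed above, which the EpCAM-high and Tumor peaks covered.

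Tspan8, the tetraspanin, had 4 and 8 locus peaks in the EpCAM-high lists and 1 in each of the other lists. The start differed in the place of the summit. In the EpCAM-high CK19 list 1 peak from −746 to 306 bp had its summit at −10 bp. The EpCAM-high Sox9 list split the same interval into a peak with its summit at −607 bp and one at −12 bp. The Prog-like summits lay at −550 and −554 bp, so the Prog-like peaks shared the upstream summit and not the one at the start.

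The Prog-like Sox9 peak ended at −366 bp and left the printed Tspan8 letters uncovered, while the Prog-like CK19 peak reached 28 bp and covered them. The Tumor list had no peak within 1000 bp of the Tspan8 start. Its 1 peak lay at −7922 bp, in a region that both EpCAM-high lists also held. Regions around −2.48 and 11.8 kb were held by both EpCAM-high lists alone.

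**Figure D4:**
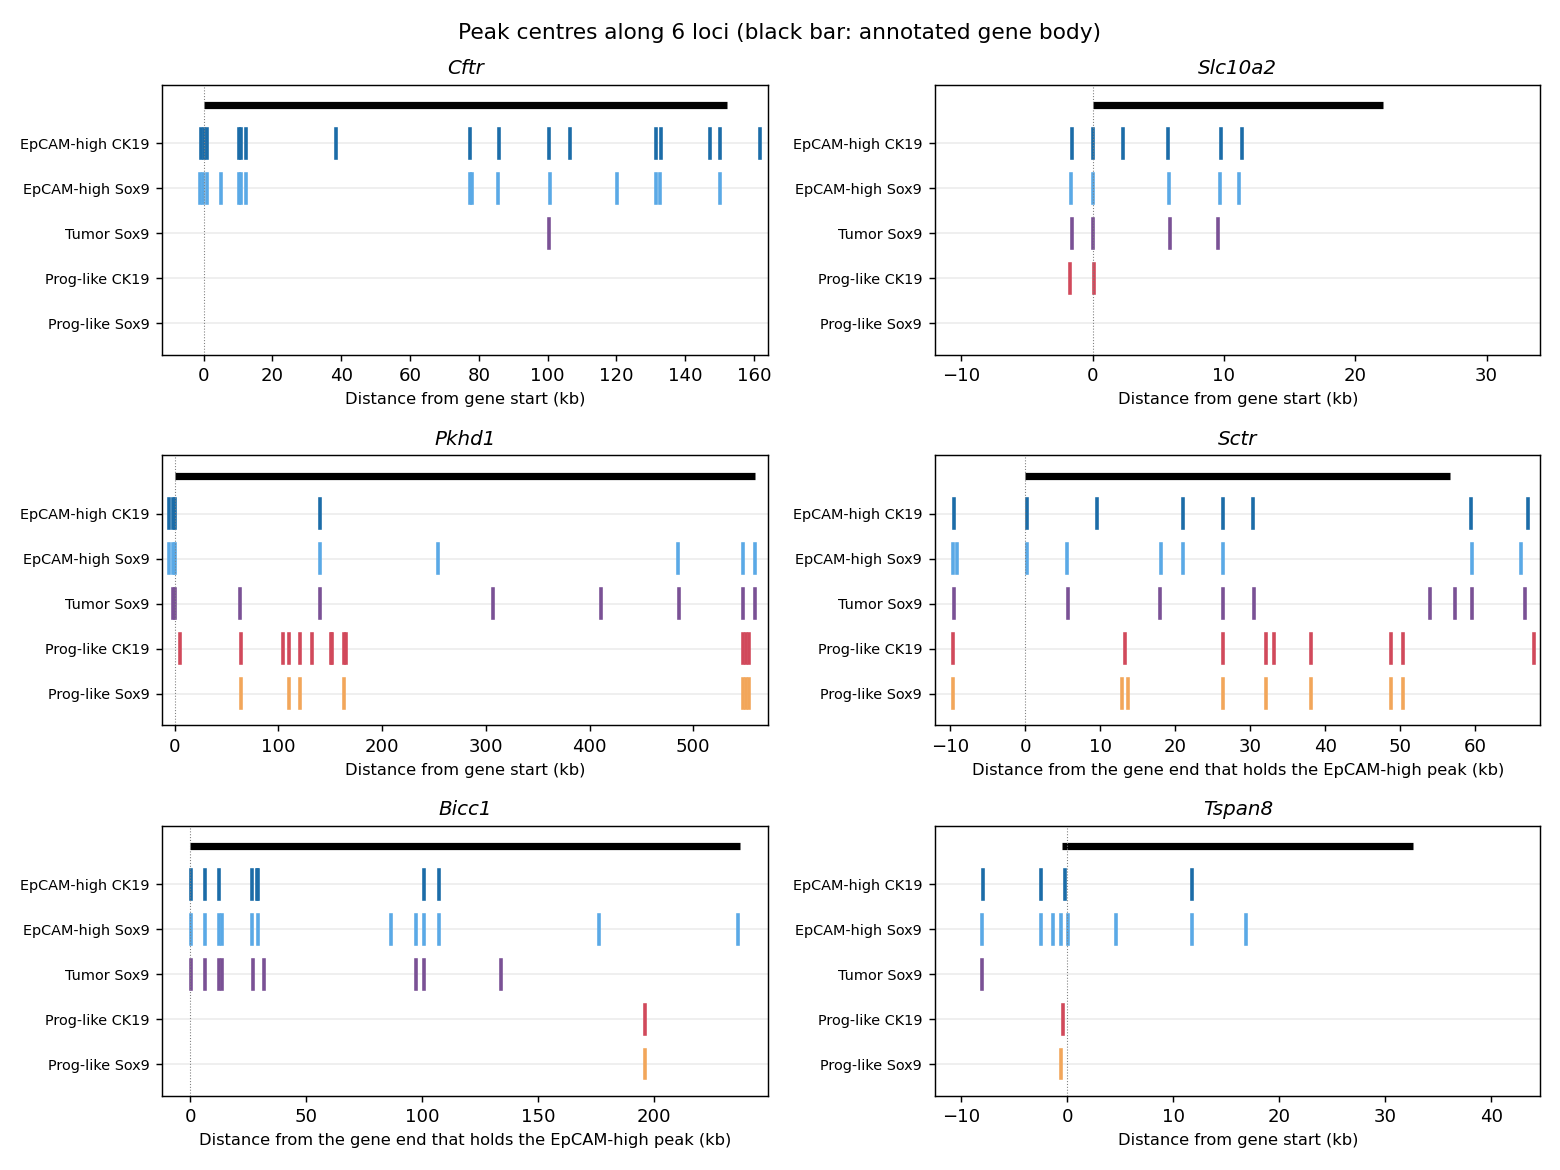
Centres of peaks (vertical ticks) along the loci of Cftr, Slc10a2, Pkhd1, Sctr, Bicc1 and Tspan8 in each of the 5 lists, against distance from the gene start in kb (for Bicc1 and Sctr, from the gene end that holds the EpCAM-high peak); the black bar is the annotated gene body. Prog-like ticks are absent from Cftr, and at Pkhd1 and Sctr they lie in the gene body at places that mostly differ from those of the EpCAM-high and Tumor lists.

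Comparison of the EpCAM-high and Prog-like CK19 lists asked at which members 1 list had a start peak and the other had none. Pkhd1, Bicc1, Cftr, Aqp1 and Sctr, 5 members, had one in EpCAM-high CK19 and not in Prog-like CK19 (6.92% of all genes), and Slc4a2 the reverse (5.56%, and 4.21% at equal length, where it was again Slc4a2). Equal length added Slc10a2 to the former, making 6 (10.3%). More locus peaks were in EpCAM-high CK19 at 6 members (20.6% of all genes) and in Prog-like CK19 at 3 (42.5%), Pkhd1, Pkd1 and Sctr. With lists of equal length they were 6 (24.9%) and 0 (27.1%). The median difference over the set was 3.0 peaks, against 0.0 over all genes. The members are 12.3 kb or longer and all genes include shorter ones, so these comparisons and those below are not matched for length.

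In the Sox9 pair, 6 members had a start peak in EpCAM-high and not in Prog-like, the same 5 and Slc10a2 (9.13% of all genes), and 0 had the reverse (4.73%). At equal length Sctr left the former, leaving 5 (10.4%), and Slc4a2 joined the reverse (4.3%). The Slc4a2 call then rested on the region near the Cdk5 start, which both lists held. Its edge was at −845 bp in Prog-like Sox9 and at −1073 bp in EpCAM-high Sox9, on either side of the window's limit. More locus peaks were in EpCAM-high Sox9 at 9 members (25.1% of all genes), all but Pkd1, and in Prog-like Sox9 at 0 (36.4%), and at equal length at 7 (25.4%) and 1 (26.2%), Sctr. In gene bodies without flanks the numbers were 7 and 2, and the share of all genes was not counted. Pkhd1 (6 and 7 peaks) and Sctr (5 and 7) then had more in Prog-like Sox9. The median difference was 3.5 peaks, against 0.0 over all genes.

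The Tumor list lay between the others, in 2 comparisons that share it. Against EpCAM-high Sox9, 0 members had a start peak in Tumor alone (2.18% of all genes) and 3, Cftr, Aqp1 and Tspan8, in EpCAM-high Sox9 alone (9.2%). The same 3 stood at equal length (5.79%), and Sctr and Slc4a2 then had one in Tumor alone (5.41%). The Tumor peak of Sctr is at the other gene end, and that of Slc4a2 belongs to a region that all 5 lists held, with its edge at −985 bp in Tumor and −1073 bp in EpCAM-high Sox9, on either side of the window's limit. More locus peaks were in Tumor at 1 member, Pkhd1 (13.2%), and in EpCAM-high Sox9 at 7 (38.0%), and at equal length at 3 (24.1%) and 5 (22.1%). Equal length kept Tumor peaks to a −log10 p of 3.33 but EpCAM-high Sox9 peaks only to 10.3. With a −log10 q of 5 or more in both lists, the numbers were 0 and 8, and the share of all genes was not counted. The median difference, Tumor minus EpCAM-high Sox9, was −2.0 peaks and −0.5 at equal length, against 0.0 over all genes.

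Against Prog-like Sox9, the Tumor list alone had a start peak at 4 members, Pkhd1, Bicc1, Sctr and Slc10a2 (5.14% of all genes, 9.93% at equal length with the same 4), and Prog-like Sox9 alone at 1, Tspan8 (7.76%, and 4.19% at equal length with the same gene). More locus peaks were in Tumor at 6 members (15.7%) and in Prog-like Sox9 at 1, Slc4a2 (44.9%), and at equal length at 6 (27.7%) and 0 (25.7%). That cut kept Tumor peaks to a −log10 p of 3.33 but Prog-like Sox9 peaks only to 21.9. With a −log10 q of 5 or more in both lists, the numbers were 3 and 1, and 6 members had equal counts. The share of all genes was not counted at that setting. The median difference was 1.0 peak and 1.5 at equal length, against 0.0 over all genes.

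Lists of the same name in the CK19 and Sox9 sets differed less at the starts. No member had a start peak in EpCAM-high CK19 and not in EpCAM-high Sox9 (2.69% of all genes), and 1, Slc4a2, the reverse (2.76%). Between the Prog-like lists, 1 member, Slc10a2, had one in CK19 alone (3.56%) and 0 in Sox9 alone (0.594%). More locus peaks were in Prog-like CK19 at 4 members (24.3%) and in Prog-like Sox9 at 1, Pkd2 (13.3%). More locus peaks were in EpCAM-high Sox9 than in EpCAM-high CK19 at 6 members (26.9%) and fewer at 2 (15.3%), but at equal length at 3 (15.3%) and 3 (17.1%). The CK19 and Sox9 samples and lists were not matched in length, so a larger number in 1 of them is not read as a difference between the sets.

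Overlapping peaks of the 5 lists at the 10 loci merged into 106 regions, of which 73 were held by 2 or more lists. In 55 of these 73 the summits lay within 100 bp of each other, and the median range was 55.0 bp. For the EpCAM-high pair the median distance between summits was 36.0 bp over 51 shared peaks, and 36.0 bp over the genome as well, with 86.3% and 82.9% within 100 bp. For the Prog-like pair it was 6.5 bp over 24 shared peaks and 20.0 bp over the genome, with 95.8% and 91.1% within 100 bp. In both of these pairs, shared summits were thus at least as close at these loci as over the genome.

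Regions held without a Prog-like list made up most of the set. Of the 106 regions, 71 were held by EpCAM-high or Tumor lists alone, or 67.0% (exact Clopper-Pearson 95% interval 57.2 to 75.8%), against 44.0% of 138775 regions of the genome. Prog-like lists alone held 19, or 17.9% (11.2 to 26.6%), against 36.9%. Both kinds of list held 16, or 15.1% (8.88 to 23.4%), against 19.1%. Intervals cover counting error only, and neighbouring regions are not independent.

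In more detail, both EpCAM-high lists alone held 22 regions, 20.8% (13.5 to 29.7%) against 9.32% of the genome, and 11 of the 22 were at Cftr. Both EpCAM-high lists with the Tumor list held 17, or 16.0% (9.63 to 24.4%) against 4.6%, and these were spread over 9 loci, with 5 at Bicc1 and 3 at Pkhd1. Both Prog-like lists alone held 11, or 10.4% (5.3 to 17.8%) against 25.8%, of which 5 were at Pkhd1, 5 at Sctr and 1 at Bicc1. All 5 lists held 8, or 7.55% (3.31 to 14.3%) against 9.75%, at Pkd1, Pkd2, Sctr and Slc4a2. No region was in the Prog-like Sox9 list alone, a share of 0.0% with an upper limit of 3.42%.

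**Figure D5:**
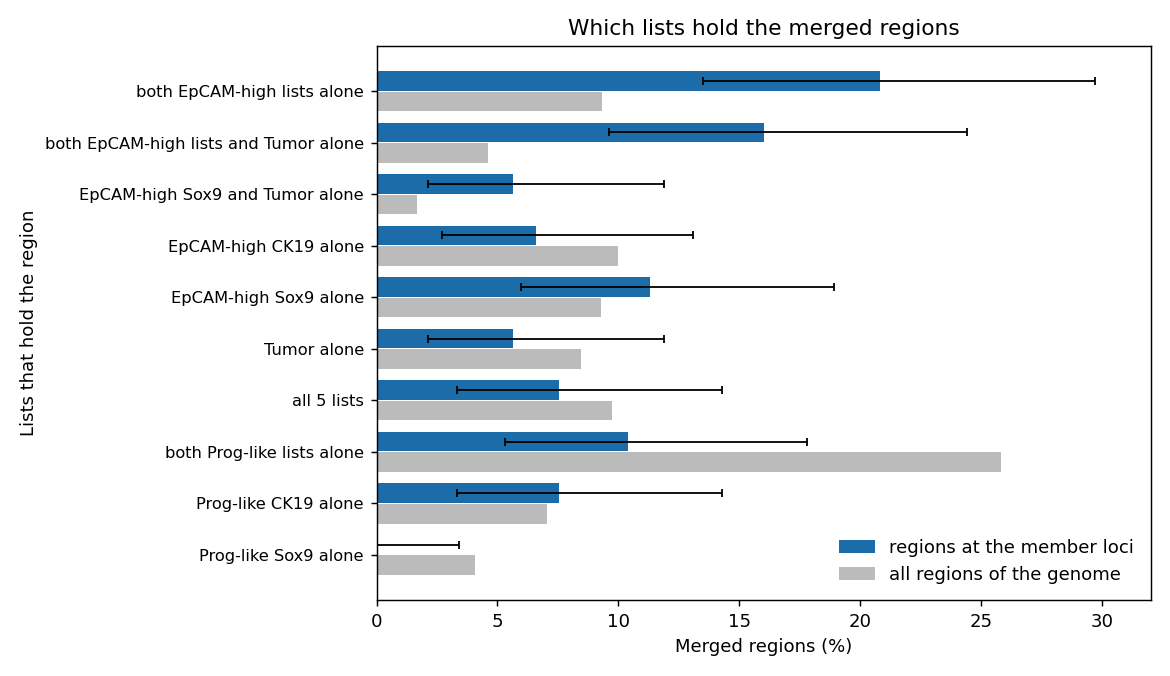
Share of merged regions (x axis, %) by the lists that hold them (y axis), for the 106 regions at the 10 loci (blue, with exact Clopper-Pearson 95% intervals) and for all 138775 regions of the genome (grey). Regions of both EpCAM-high lists alone are 20.8% at the loci and 9.32% in the genome, and regions of both Prog-like lists alone are 10.4% and 25.8%.

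All 19 regions held by Prog-like lists alone lay in gene bodies: 11 in Pkhd1, 6 in Sctr and 1 each in Bicc1 and Pkd1. None was within 1000 bp of the member's start or end or in a flank. They came mostly from Pkhd1, the longest locus, and Sctr, and places were not counted over the genome. Of the 11 regions at gene starts, 5 were held by EpCAM-high or Tumor lists alone and 6 by both kinds. Of the 71 regions held by EpCAM-high or Tumor lists alone, 51 lay in gene bodies, 11 in flanks and 4 near a gene end of Bicc1 or Sctr.

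Pairs of lists were also compared by the share of their merged regions that both held. The EpCAM-high and Prog-like CK19 lists shared 13 of 83 regions at the 10 loci, or 15.7% (8.61 to 25.3%), against 19.9% in the genome. The Sox9 pair shared 12 of 88, or 13.6% (7.25 to 22.6%), against 19.1%. Both intervals include the share of the genome. Tumor and EpCAM-high Sox9 shared 35 of 82, or 42.7% (31.8 to 54.1%), against 33.1%, and Tumor and Prog-like Sox9 10 of 59, or 16.9% (8.44 to 29.0%), against 17.9%. The EpCAM-high pair shared 51 of 81, or 63.0% (51.5 to 73.4%), against 51.9%, and the Prog-like pair 24 of 36, or 66.7% (49.0 to 81.4%), against 74.5%. Each of these 4 intervals also includes the share of the genome.

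Other genes of the same functions were taken from a list of 33 transport genes and a list of 23 cilium and polycystic liver genes. Transport genes had a start peak at 25 and 23 of 33 in the EpCAM-high lists, 21 and 17 in the Prog-like lists and 23 in the Tumor list, where all genes had 59.0%, 59.0%, 57.6%, 54.6% and 52.0%. With lists of equal length it was 23 and 21, 14 and 14, and 23. Cilium genes had one at 22 and 22 of 23, 19 and 19, and 21, and at equal length at 20 and 21, 18 and 16, and 21. Prog-like counts were thus the lowest for both lists, the Tumor count of transport genes equalled that of an EpCAM-high list, and most cilium genes had a start peak in every list.

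Locus peaks were compared in the same pairs. In the CK19 pair, transport genes had more in EpCAM-high at 14 of 33 and in Prog-like at 14, and cilium genes at 6 of 23 and 14, where all genes had 20.6% and 42.5%. In the Sox9 pair the numbers were 15 and 11 for transport genes and 8 and 10 for cilium genes, where all genes had 25.1% and 36.4%. With lists of equal length they were 12 and 8 and 6 and 7 in the CK19 pair (24.9% and 27.1% of all genes). In the Sox9 pair they were then 14 and 10 and 11 and 7 (25.4% and 26.2%). As deposited, the median difference was 0.0 for both lists in the Sox9 pair and, in the CK19 pair, 0.0 for transport and −1.0 for cilium genes, against 0.0 over all genes.

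Of the wider lists, Cys1, which encodes the cilium protein cystin, had a start peak in EpCAM-high Sox9 and not in Prog-like Sox9, with 5 and 0 locus peaks, and the same in the CK19 pair, with 4 and 1. The glucose transporter gene Slc5a1 (4 and 0), the sodium-proton exchanger gene Slc9a2 (4 and 0) and the somatostatin receptor gene Sstr2 (5 and 1) followed in the Sox9 pair. Adcy6, an adenylyl cyclase of cilia, and the cilium gene Dzip1l had a start peak in EpCAM-high CK19 and not in Prog-like CK19, with 3 and 0 and with 4 and 1 locus peaks, as had Slc9a3 (4 and 2) and Tspan1 (4 and 3).

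The reverse was seen at Aqp9, the water and glycerol channel, with a start peak and 8 locus peaks in each Prog-like list and 0 in each EpCAM-high list. The aquaporin genes Aqp1 and Aqp9 were thus held by opposite lists. The Tumor list had a start peak at Aqp9 (2 locus peaks), Slc51b (2), Slc9a3 (2) and Trpv4 (3) and EpCAM-high Sox9 had none there, with 0, 0, 1 and 3 locus peaks. EpCAM-high Sox9 and not Tumor had one at Kcnn4 (5 and 0 locus peaks), Dzip1l (4 and 0), Muc1 (5 and 1) and Adcy8 (3 and 0).

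Against Prog-like Sox9, the Tumor list alone had a start peak at Sstr2 (5 and 1 locus peaks), Cys1 (3 and 0), Slc5a1 (3 and 0), Slc51b (2 and 0) and Adcy6 (1 and 0). Prog-like Sox9 alone had one at Muc1 (4 and 1), a mucin of epithelia. Slc9a3 had one in EpCAM-high CK19 and not in EpCAM-high Sox9 (4 and 1).

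Genes most like 3 members were found by the sum of absolute differences in locus peaks over the 5 lists. For Cftr these were Reln (a sum of 5), Nhs (6) and Fgf12 (7). Reln had 15 and 13 peaks in the EpCAM-high lists and 1 in each of the other 3. For Bicc1 they were Col18a1, Fign and Pawr, with a sum of 4 each, and for Pkhd1 Dgat2, Epb41l1 and Pcdhga2, with a sum of 7 each. The measure rests on 5 numbers per gene and says nothing of shared function.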

How the data were processed

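ATAC-seq peak lists of sorted liver cells were used as deposited. Per the submitters' processing notes, the build was mm10 and the tools included MACS2, Bowtie 1.1.2, deepTools and HOMER. What each tool did, how many libraries stand behind a list and how duplicates were treated is not given in the sources used here. The files have no header and the narrowPeak layout. By this layout, the authors' deposited columns are a fold enrichment over the surroundings (a linear ratio), a −log10 p and a −log10 q. The lowest −log10 q, 1.3 to 1.32, is that of a q of 0.05. The deposited score repeats the −log10 q and was not used. Such authors' values served only for ranks and filters inside 1 list.

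Gene positions, and starts for 17492 of 21887 protein-coding genes (79.9%; 8 of the 10 members), are RefSeq's for GRCm38.p6, the build of mm10; other genes were given both ends. Loci have 10 kb flanks, gene-start windows 1000 bp, and regions share at least 1 bp. Every value is a count or a share, and no test was made. Shares have exact Clopper-Pearson 95% intervals. Python 3.11.15, numpy 2.4.6, pandas 2.3.3 and scipy 1.17.1 were used, and the counting was tested on simulated data. Alternatives were equal length, −log10 q of 5 or more, other flanks, windows and overlap, and, added after seeing the data, either gene end for every gene and no regions at starts of other genes.

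All 10 members were named, with Krt19, Epcam, Adgre1 and Alb whatever their values. Pathway genes were named, up to 5 per direction and pair, where 1 list had a start peak and the other none at both list lengths; those with the largest difference in locus peaks came first. Of the genes this rule names, some are not reported here. The members and lists were chosen with earlier results of these data known.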

Additional observations from a re-analysis of the deposited data

Results flagged for a closer look

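Pkhd1 and Sctr were the members at which, as deposited, the EpCAM-high and Prog-like lists differed in opposite directions in the CK19 and Sox9 sets. At Pkhd1 the number of locus peaks in EpCAM-high minus that in Prog-like was −9 in the CK19 set (4 and 13 peaks) and 1 in the Sox9 set (8 and 7). At equal length the Pkhd1 counts were 4 and 4 in the CK19 set and 3 and 0 in the Sox9 set. At Sctr the difference was −1 in the CK19 set (8 and 9) and 1 in the Sox9 set (9 and 8). At equal length the Sctr counts were 7 and 7 in the CK19 set and 4 and 7 in the Sox9 set. Neither gene thus kept opposite directions at equal length. With 1 list per condition the difference between the sets was not tested.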

How the results depend on the processing

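Numbers of members with a gene-start peak stayed within 1.5 times those reported in all 5 lists at equal length, with a −log10 q of 5 or more, with windows of 2500 and 250 bp and with either gene end used for every gene, and so did the shares of merged regions at an overlap of at least 50%. The total of locus peaks moved with the flanks and the list length. With flanks of 50 kb it was 101 and 128 in the EpCAM-high lists, 61 and 45 in the Prog-like lists and 75 in the Tumor list. At equal length it was 49 in EpCAM-high Sox9 and, in the Prog-like lists, 20 (CK19) and 16 (Sox9). Without regions at the start of another gene the totals were 54, 67, 30, 20 and 37. In each of these settings the EpCAM-high totals were above the Prog-like totals of the same set. Among single genes, 17 of 70 counts moved at equal length and 48 with flanks of 50 kb. No paired analysis was possible because the lists carry no replicate numbers and no result comes from a test. Read depth and the number of pooled libraries are unknown, and their part in a missing peak was not tested.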

Other observations

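Markers of 3 further cell types were counted in the same way. The 4 endothelial markers had 5 and 6 summed locus peaks in the EpCAM-high lists, 39 and 33 in the Prog-like lists and 9 in the Tumor list. The 5 T and NK markers had 3 and 4, 12 and 11, and 6, and the 5 stellate and mesenchymal markers 6 and 11, 18 and 17, and 2. These sums were not shared evenly by the markers. Col1a1 went the other way, with 3 and 5 locus peaks in the EpCAM-high lists, 1 and 0 in the Prog-like lists and 1 in the Tumor list. Cd3e, Thy1 and Des had 0 in every list. A start peak was at 1 of the 5 T and NK markers in every list. Of the 5 stellate and mesenchymal markers, 2 and 3, 3 and 2, and 2 had one. As deposited, 1 and 0 of the 4 endothelial markers had a start peak in the EpCAM-high lists, 2 and 2 in the Prog-like lists and 0 in the Tumor list. At equal length none of them had one in any list.

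Promoter windows of the members differed in CG dinucleotides, which are frequent in promoters of many widely expressed genes. The 250 bases before the start held 30 at Cftr, 16 at Pkd1, 28 and 16 at the starts of Slc4a2, 5 at Aqp1, and 4 each at Pkhd1, Pkd2, Slc10a2 and Tspan8. Over genes with a listed start, the median was 18.0 where all 5 lists had a start peak (8160 genes), 2.0 where none had (5737 genes) and 9.0 where both EpCAM-high lists and neither Prog-like list had (861 genes). Cftr, with 30, lacked a start peak in 3 lists, and Pkd2, with 4, had one in all 5.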
